A study of Mus musculus with 6 samples.

Results

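The matrix metalloproteinases (MMP), the disintegrin metalloproteinases (ADAM), their secreted relatives with thrombospondin repeats (ADAMTS) and the tissue inhibitors of metalloproteinases (TIMP) were followed in pressure-loaded mouse left ventricle. Members were all protein-coding genes whose GENCODE M21 symbol is Mmp, Adam, Adamts or Timp followed by a number alone. This gave 71 of the 47729 genes in the deposited table, with 21 MMP, 27 ADAM, 19 ADAMTS and 4 TIMP genes. Symbols that end in a letter (such as Mmp1b) and the ADAMTS-like genes fall outside that rule. Left ventricle was taken 9 days after transverse aortic constriction (TAC), in which a surgical narrowing of the aorta puts the ventricle under pressure. There were 3 samples labelled Treg and 3 labelled control. Per the series title, the tested treatment was systemic transfer of regulatory T cells (Treg) that were induced in vitro and CD28-deprived. The sources used here do not state what the control mice received, nor the strain, age and number of mice behind each sample. All samples in both groups had been operated on, so no value below compares a loaded with an unloaded heart.

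MMPs are zinc proteases made as inactive precursors. Most are secreted, while the membrane-anchored ones cut collagen and other matrix proteins at the cell surface. ADAMs are mainly membrane proteases that release growth factors, cytokines and receptors from cells, and several are active only in the reproductive tract or have lost their catalytic site. ADAMTS enzymes are secreted and cut proteoglycans, process procollagen or act on microfibrils. TIMPs bind and block the active site of these enzymes, and TIMP2 also helps the membrane-anchored MMP14 to activate MMP2. In the loaded heart these genes are studied for the turnover of collagen and proteoglycans around cardiomyocytes.

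Library totals lay between 28937253 and 29979080 counts, and each level is in CPM, that is, counts relative to the library's total after adjustment by the trimmed mean of M-values (TMM). Some libraries stood apart. Control replicate 3 was the highest library at 33.3% and the lowest at 31.9% of all 17365 genes tested, whereas the other 5 libraries were each the highest at 10.7% to 15.9%. Treg replicate 3 carried atrial muscle transcripts, its 3 atrial markers (Myl7, Sln and Myl4) summing to 119 CPM against 2.79 to 4.81 CPM elsewhere. The 5 cardiomyocyte markers were abundant in all libraries, at a summed 30326 to 41847 CPM in Treg and 26716 to 40116 CPM in control samples. The T cell markers Cd3d, Cd3g, Trac and Foxp3 summed to 2.09 to 2.34 CPM in Treg and 1.59 to 2.04 CPM in control samples. Foxp3 made up most of each sum and overlapped between the groups. It had 1.68, 1.51 and 1.76 CPM in Treg samples and 1.68, 1.42 and 1.72 CPM in control samples. Cd3d, Cd3g and Trac were at 13 counts or fewer in every library, so the sums do not show a difference in T cells. At least 1 of these 4 genes was at 0 in 2 of the 3 libraries of each group.

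Of the 71 members, 48 had enough counts to be tested. These were 15 MMP, 12 ADAM, 17 ADAMTS and 4 TIMP genes, and 43 of them lay above the filter's cutoff (0.335 CPM) in all 6 libraries. Each of the 48 reached that cutoff in at least 1 library of each group. Mmp13 and Adamts17 reached it in 3 Treg and 2 control libraries, so their Treg libraries alone met the filter. Of the 23 members not tested, 11 were at 0 in every library and the others reached at most 21 counts in any library. Per kb of exon, the most abundant members were Mmp2 at 57.7 and 48.1, Timp2 at 42.8 and 42.4, Timp1 at 29.2 and 97.6, Timp3 at 30.5 and 24.3 and Adam9 at 24.4 and 40.1 (mean CPM per kb, Treg and control samples in turn). Summed over the family on the same scale, MMP genes came to 91.7 to 102 in Treg and 103 to 116 in control libraries, ADAM genes to 63.5 to 69.8 in Treg and 88.0 to 94.2 in control libraries, and ADAMTS genes to 37.4 to 47.4 in Treg and 50.1 to 68.6 in control libraries. In these 3 families the sum of every Treg library was below that of every control library, most closely for the MMP genes. Taken singly, 11.7% of all genes tested were also lower in every Treg than in any control library. No such share was computed for sums. Adam9 was the largest part of each ADAM sum, at 34.2% to 45.4%. Adamts1 or Adamts2 was the largest part of each ADAMTS sum, at 28.1% or more. The MMP order rested on high values in single libraries. Mmp12 reached 109 CPM in control replicate 2 and Mmp3 reached 64.8 CPM in control replicate 3, each far above its other libraries. The TIMP sums overlapped, at 90.05 to 132 in Treg and 95.2 to 290 in control libraries, and Timp1 alone made up 72.9% of the highest.

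**Figure D1:**
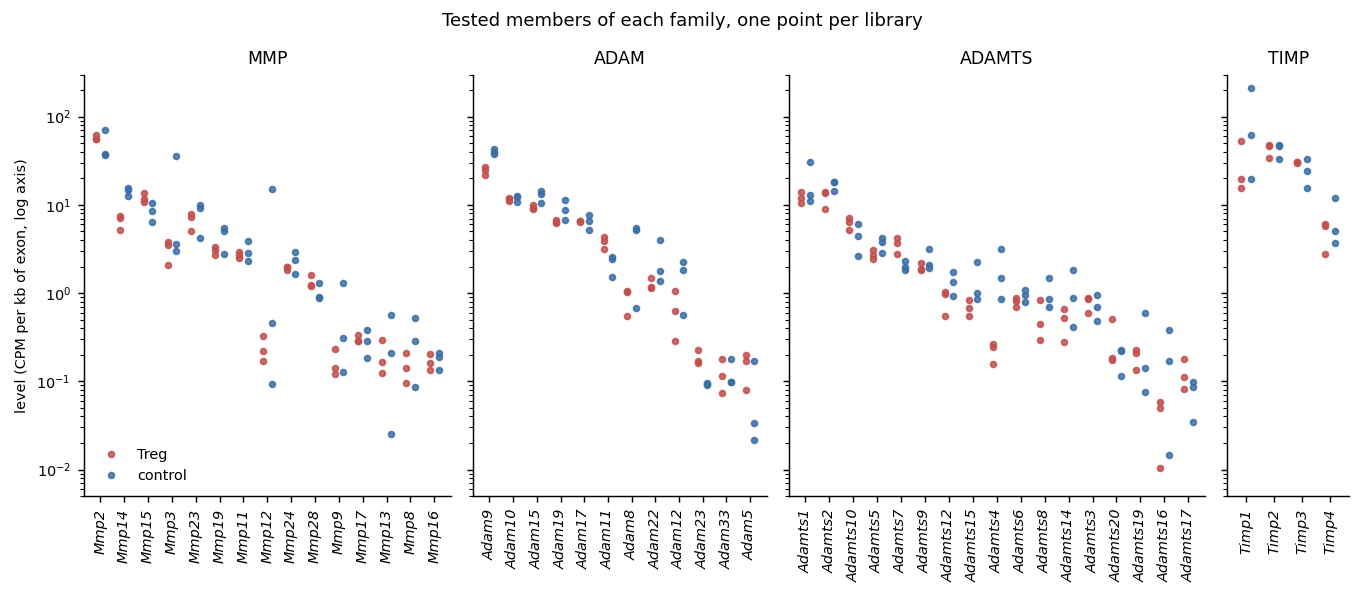
Levels of the 48 tested members, as CPM per kb of exon on a log axis, with 1 point per library (Treg in red, control in blue) and members of each family sorted by mean level. Mmp2, Adam9, Adamts1 and Timp1 lead their families, and Timp1, Mmp3 and Mmp12 each have a control library far above the other libraries.

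No member passed the test over all genes: by edgeR's quasi-likelihood test, 0 of 48 had an adjusted p under 0.05, as did 0 of 17365 genes (0%). At an adjusted p under 0.1, where 0.472% of all genes fell, there were 2 members, Mmp14 and Adamts4, both lower in Treg samples. At an unadjusted p under 0.05 there were 11 members lower and 4 higher in Treg samples, that is 22.9% and 8.33% of the members, against 8.31% and 8.23% of all genes. Fold changes were below 0 for 33 of the 48 members (68.8%), against 52.0% of all genes, with a median log2 fold change of −0.42 against −0.02. The groups did not overlap for 11 members, 7 lower and 4 higher in Treg samples. This share, 22.9%, was close to the 25.4% of all genes. By direction, 11.7% of all genes were lower and 13.7% higher without overlap. DESeq2 called 6 of the 48 members and 3.74% of all genes. Of these, 3 were lower and 3 higher in Treg samples, against 1.89% and 1.85% of all genes. Limma-voom called 0 members and 0% of all genes.

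At an unadjusted p under 0.05 in either direction there were 15 members (31.2%, against 16.5% of all genes), and this count rested on several libraries. It was 6 without Treg replicate 2 and 9 without Treg replicate 1, where 9.56% and 7.95% of all genes passed, 9 by limma-voom (16.2%) and 10 with the replicate number as a block (14.2%). In the other direction, it was 21 without control replicate 1 (22.5% of all genes), 18 without control replicate 3 (18.5%) and 21 by DESeq2 (16.7%). Without control replicate 3, edgeR called 3 members, Mmp14, Adamts4 and Adam9, all lower in Treg samples, where 1.3% of all genes were called and 0.629% were called lower. Without a filter on low counts 1 member was called (0.131% of all genes), and 2 were called with replicate 3 of both groups left out (0.684%). Groups did not overlap for 21 members without control replicate 1, 19 without control replicate 3 and 24 with replicate 3 of both groups left out, while 43.2%, 37% and 48.5% of all genes did not. The number of the 48 members with a fold change below 0 was 31 to 35 over the 6 omissions. Their median was −0.29 without control replicate 3, and the ADAMTS median was −0.13 there, against −0.48 with all libraries.

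**Figure D2:**
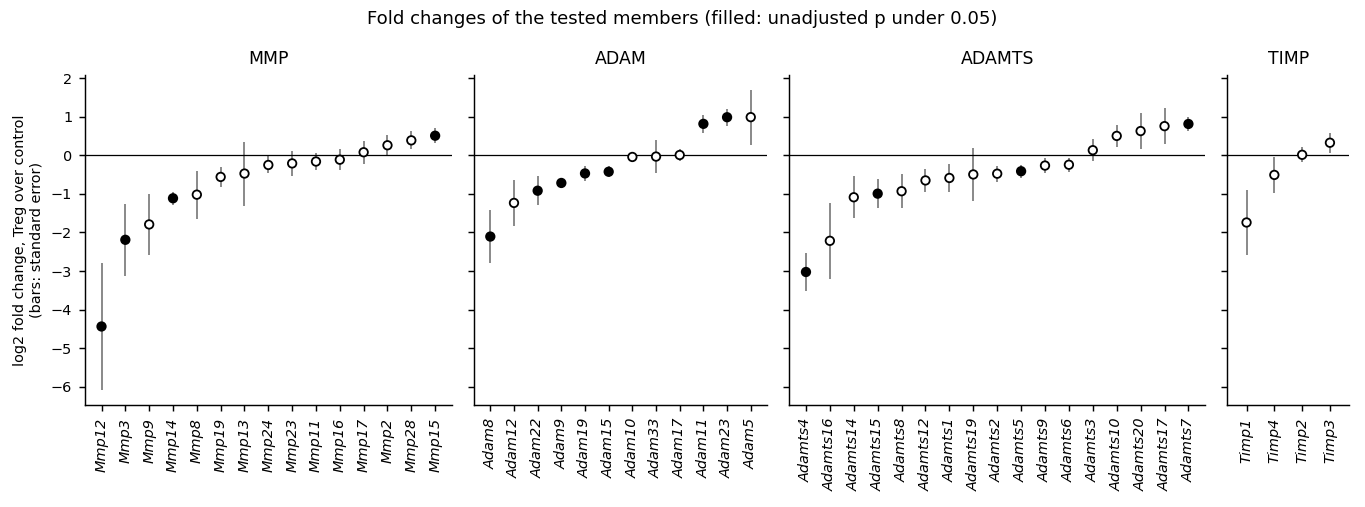
Log2 fold changes of the 48 tested members, Treg over control, with standard errors as bars and members of each family sorted by value. Filled points have an unadjusted p under 0.05 by edgeR; 33 points lie below 0 and 15 above, and Mmp12 has the widest bar.

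Among the MMPs, 11 of 15 tested members had a fold change below 0, with a median of −0.25. Mmp14, the membrane-anchored collagenase that also activates MMP2 (chromosome 14, 54431612 to 54445364, GRCm38), had 42.3, 31.2 and 44.7 CPM in Treg samples and 74.3, 92.7 and 88.8 CPM in control samples. All Treg libraries lay below all control libraries, for a log2 fold change of −1.11 ± 0.17 (SE; edgeR adjusted p = 0.0989, DESeq2 adjusted p = 5.64e-06). It ranged from −1.21 to −0.97 when each library was left out in turn, and edgeR's adjusted p was 0.0393 without control replicate 3. The summed CPM of 5 fibroblast markers, the cell type in which Mmp14 is best known, was 1256 to 2259 in Treg and 1650 to 3433 in control libraries and overlapped; its part in the Mmp14 difference was not tested. In bulk tissue, fewer cells of a type and less RNA per cell cannot be told apart, here and for every member below.

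The other membrane-anchored MMPs had other values. Mmp15, another transmembrane MMP (chromosome 8, 95352268 to 95375080), had 72.8, 63.4 and 58.7 CPM in Treg samples and 46.1, 56.0 and 34.9 CPM in control samples. Here every Treg library was above every control library, although the gap between the nearest pair was small. Mmp15 had a log2 fold change of 0.51 ± 0.19 (edgeR adjusted p = 0.265). Mmp24, a membrane-anchored MMP best known from neurons (chromosome 2, 155775342 to 155818366), had 9.36, 9.38 and 8.54 CPM in Treg samples and 11.1, 13.7 and 7.67 CPM in control samples, which overlapped. Mmp16, Mmp17 and Mmp23 had log2 fold changes of −0.11, 0.08 and −0.21, each with overlapping groups. Without control replicate 1 they were 0.03, −0.14 and 0.0091, so none of these directions held. Mmp25, the leukocyte membrane-anchored MMP, was not tested, at 2 to 11 counts.

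The gelatinases cut denatured collagen and basement membrane. Mmp2 (chromosome 8, 92827291 to 92853420) had 188, 187 and 209 CPM in Treg samples, against 236, 123 and 127 CPM in control samples. The Treg libraries were close together and lay inside the control range, where replicate 1 was the highest. Its log2 fold change was 0.26 ± 0.26 (edgeR adjusted p = 0.618), and 0.65 without control replicate 1. Mmp9 (chromosome 2, 164940780 to 164955850), a gelatinase stored by neutrophils, was scarce, with 0.824, 0.433 and 0.502 CPM in Treg samples and 0.456, 1.09 and 4.58 CPM in control samples. Control replicate 3 was far above the rest, and the log2 fold change of −1.79 ± 0.80 (edgeR adjusted p = 0.315) was −0.40 without it.

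Of the 21 MMPs, 8 lie side by side on chromosome 9 within 427072 bp (7272514 to 7699585), in the order Mmp13, Mmp12, Mmp3, Mmp10, Mmp8, Mmp27, Mmp20 and Mmp7. The cluster holds collagenases, stromelysins and macrophage elastase, which are known as genes switched on by inflammatory signals through AP-1 (the FOS and JUN transcription factors). Mmp3, a stromelysin (7445822 to 7455975), had 3.76, 6.82 and 6.25 CPM in Treg samples and 6.49, 5.46 and 64.8 CPM in control samples. Only control replicate 3 stood out, and without it the log2 fold change moved to −0.09, against −2.19 ± 0.93 with all libraries (edgeR adjusted p = 0.300). Mmp10, the neighbouring stromelysin (7502352 to 7510240), was at 0 counts in every Treg library and at 1, 1 and 20 counts in control replicates 1, 2 and 3, too few to test. Mmp12, the macrophage elastase (7344381 to 7369499), had 2.37, 1.59 and 1.22 CPM in Treg samples, against 3.30, 109 and 0.673 CPM in control samples. Its high library was control replicate 2, while control replicate 3 was the lowest of all. The log2 fold change of −4.44 ± 1.65 (edgeR adjusted p = 0.268) was −0.21 without control replicate 2, and DESeq2 gave no adjusted p for it or for Mmp3.

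The remaining cluster members were scarcer. Mmp13, the main collagenase of mouse (7272514 to 7283331), had 0.330, 0.793 and 0.440 CPM in Treg samples and 0.561, 1.52 and 0.0673 CPM in control samples. It followed the pattern of Mmp12 among the control libraries, with replicate 2 highest and replicate 3 lowest. Mmp8, the neutrophil collagenase (7558456 to 7568485), had 0.231, 0.505 and 0.345 CPM in Treg samples and 0.211, 0.695 and 1.28 CPM in control samples, highest in replicate 3. Mmp7 and Mmp20 were at 0 in all libraries, and Mmp27 was at 5 to 15 counts. Beside these values, 5 macrophage markers (Csf1r, C1qa, Adgre1, Cd68 and Gpnmb) summed to 142 to 200 CPM in Treg libraries and to 133, 352 and 143 CPM in control replicates 1, 2 and 3. Gpnmb alone gave 144 of the 352 CPM. The 5 neutrophil markers S100a8, S100a9, Retnlg, Csf3r and Cxcr2 summed to 7.85 to 18.04 CPM in Treg libraries and to 6.60, 8.64 and 35.5 CPM in control replicates 1, 2 and 3. S100a8 and S100a9 gave 11.95 and 13.1 of the 35.5 CPM. Csf3r, at 5.72 CPM in control replicate 3, was not highest there, with 7.09, 6.92 and 4.33 CPM in Treg replicates 1, 2 and 3. None of these markers was at 0 in any library, and their part in the MMP values was not tested.

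The stretch upstream of the start is shown for 4 cluster members whose control libraries differed most widely and, for contrast, for Mmp14, which was even within each group. Each line gives the last 100 bases before the RefSeq transcript start (GRCm38.p6, plus strand), 5′ to 3′, with matches to the AP-1 motif TGANTCA and the TATA box TATAAA in capitals. They lie at chr9:7272414-7272513 for Mmp13, chr9:7347274-7347373 for a start inside the Mmp12 gene, chr9:7445722-7445821 for Mmp3, chr9:7502242-7502341 for Mmp10 and chr14:54431498-54431597 for Mmp14.
Mmp13: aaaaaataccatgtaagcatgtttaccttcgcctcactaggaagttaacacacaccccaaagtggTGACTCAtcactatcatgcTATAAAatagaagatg
Mmp12: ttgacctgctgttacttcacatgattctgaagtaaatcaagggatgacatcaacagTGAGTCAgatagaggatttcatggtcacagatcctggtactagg
Mmp3: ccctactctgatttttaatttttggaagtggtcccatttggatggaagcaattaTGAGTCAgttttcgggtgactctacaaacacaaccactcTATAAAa
Mmp10: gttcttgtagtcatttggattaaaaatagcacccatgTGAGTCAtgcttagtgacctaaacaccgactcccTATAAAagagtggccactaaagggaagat
Mmp14: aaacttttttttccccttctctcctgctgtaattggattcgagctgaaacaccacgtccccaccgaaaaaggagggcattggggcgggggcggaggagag
The AP-1 letters begin 35, 44, 46 and 63 bases before the start of Mmp13, Mmp12, Mmp3 and Mmp10, and the Mmp14 stretch holds neither motif. RefSeq windows were found for 42 of the 71 members. Searched over 250 bases before the start, TGANTCA, which reads the same on both strands apart from its middle base, was found for 10 of the 42 (23.8%), against 7.82% of 27025 genes with a window. TATAAA, searched on the transcribed gene's own strand, was found for 8 of the 42 (19.0%), against 8.94% of all genes. Of the 10 with TGANTCA, 6 are MMPs and all 6 lie in the chromosome 9 cluster. They include Mmp7 and Mmp20, which were at 0 counts in every library. Mmp8, Mmp9, Adam8 and Timp1, which also varied widely among the control libraries, were not among the 10. As only 42 of the 71 members had a window, absence from the 10 does not show that a member lacks the motif. Such matches describe letters in a window and are not evidence of binding.

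Of the other MMPs, Mmp19, a secreted MMP of many tissues (chromosome 10, 128790910 to 128800824), had 10.7, 9.52 and 11.7 CPM in Treg samples and 9.93, 17.8 and 19.4 CPM in control samples. Its log2 fold change was −0.56 ± 0.25 (edgeR adjusted p = 0.322), with control replicate 1 among the Treg values. Mmp19 shares 22.3% of its exon length with Tmem198b on the opposite strand. Mmp28, epilysin (chromosome 11, 83440768 to 83463071), had 4.78, 6.24 and 4.65 CPM in Treg samples and 5.05, 3.44 and 3.47 CPM in control samples, a log2 fold change of 0.39 ± 0.23 (edgeR adjusted p = 0.425). Mmp11, stromelysin 3, had −0.16, and 0.07 without control replicate 1.

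**Figure D3:**
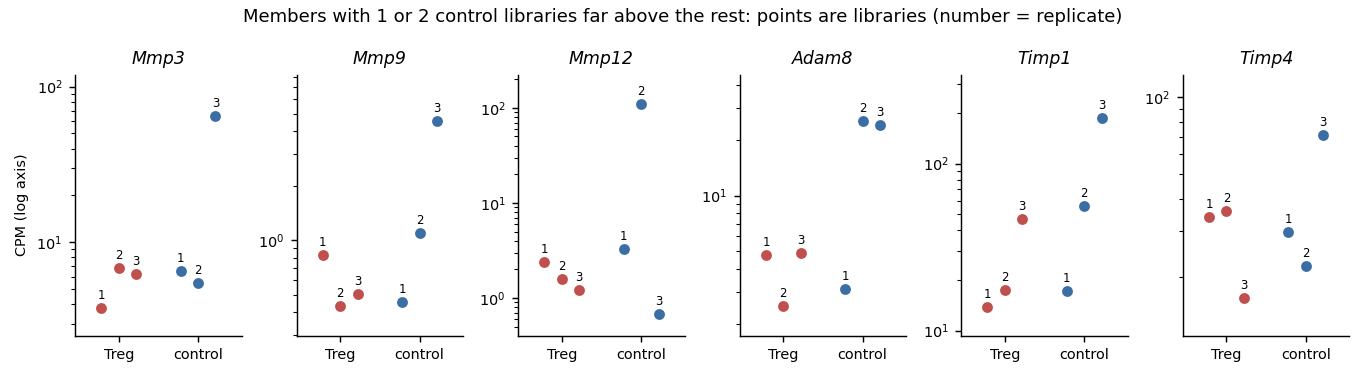
CPM on log axes for Mmp3, Mmp9, Mmp12, Adam8, Timp1 and Timp4, with 1 point per library, its replicate number above it, and Treg on the left. Control replicate 3 is the highest for Mmp3, Mmp9, Timp1 and Timp4, control replicate 2 for Mmp12, and both for Adam8, while control replicate 1 lies among the Treg libraries or close to them.

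The ADAM family fell into members expressed in the heart and members with few or no counts. Of 15 ADAMs grouped as reproductive or other, 14 were not tested, 8 were at 0 in every library and none of the 14 exceeded 9 counts. Chromosome 8 holds 11 ADAM members, of which 6 were at 0 in all libraries and 2, Adam9 and Adam5, were tested. Of the 12 tested ADAMs, 8 had a fold change below 0 (66.7%, against 52.0% of all genes). Their median was −0.23, against −0.02 over all genes. Of the 9 somatic ADAMs with an intact catalytic motif, 8 were tested, 7 with a fold change below 0 and a median of −0.45.

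Adam9, a widely expressed sheddase (chromosome 8, 24949611 to 25016927), had 89.2, 102 and 110.0 CPM in Treg samples and 165, 176 and 155 CPM in control samples. Both groups were tight and well apart. Adam9 had a log2 fold change of −0.72 ± 0.13 (edgeR adjusted p = 0.116, DESeq2 adjusted p = 0.000326), and edgeR's adjusted p was 0.0426 without control replicate 3. It lay between −0.78 and −0.63 over the 6 omissions. Adam15, a sheddase of endothelium and smooth muscle (chromosome 3, 89338542 to 89349996), had 57.1, 55.3 and 61.3 CPM in Treg samples and 80.9, 64.9 and 87.4 CPM in control samples, again with no overlap. Its log2 fold change was −0.43 ± 0.14 (edgeR adjusted p = 0.241), and 20.6% of its exon length is shared with an antisense transcript. Adam19, which releases neuregulins and is needed for heart septum formation in mice, had a log2 fold change of −0.47 ± 0.19 (edgeR adjusted p = 0.288). Its Treg libraries lay at 44.5 to 47.5 CPM, just below control replicate 3 at 47.7 and below replicates 1 and 2 at 80.6 and 62.6.

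Adam10 and Adam17, the most studied sheddases, which cut Notch receptors and the TNF precursor, had fold changes close to 0. Adam10 (chromosome 9, 70678997 to 70780229) had 58.9, 54.0 and 58.0 CPM in Treg samples and 60.1, 62.6 and 53.2 CPM in control samples. Adam10 had a log2 fold change of −0.04 ± 0.12 (edgeR adjusted p = 0.872), and 0.0050 without control replicate 2. Adam17 (chromosome 12, 21323509 to 21373632) had 45.7, 47.3 and 47.1 CPM in Treg samples and 47.3, 54.6 and 37.5 CPM in control samples. Its log2 fold change was 0.01 ± 0.15 (edgeR adjusted p = 0.983), and −0.13 without control replicate 3.

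Adam8 and Adam12 separated the control libraries from one another. Adam8, a sheddase of leukocytes (chromosome 7, 139978932 to 139992562), had 4.75, 2.52 and 4.90 CPM in Treg samples and 3.12, 25.3 and 24.1 CPM in control samples. Control replicates 2 and 3 were high while replicate 1 lay within the Treg values, and the log2 fold change was −2.11 ± 0.70 (edgeR adjusted p = 0.238). Adam12, an ADAM of regenerating muscle and activated fibroblasts that releases HB-EGF (chromosome 7, 133883199 to 134232146), had 6.66, 3.03 and 11.1 CPM in Treg samples and 5.93, 19.4 and 23.8 CPM in control samples. The same control pair was high, with a log2 fold change of −1.23 ± 0.59 (edgeR adjusted p = 0.339).

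Adam11, Adam22 and Adam23 lack a catalytic site and are known as neuronal receptors of LGI proteins. All 3 were tested, and 2 of them had higher values in every Treg than in any control library. Adam23 (chromosome 1, 63445891 to 63596276) had 4.06, 3.07 and 2.86 CPM in Treg samples and 1.72, 1.62 and 1.68 CPM in control samples. The control libraries were almost identical and lay below all Treg libraries, for a log2 fold change of 0.99 ± 0.22 (edgeR adjusted p = 0.156, DESeq2 adjusted p = 0.026). Adam11 (chromosome 11, 102761439 to 102780262) had 24.8, 17.8 and 22.3 CPM in Treg samples and 14.5, 13.7 and 8.72 CPM in control samples. Its log2 fold change was 0.82 ± 0.23 (edgeR adjusted p = 0.198, DESeq2 adjusted p = 0.0435). Adam22, the last of them, had 16.7, 21.2 and 16.4 CPM in Treg samples and 25.5, 19.9 and 57.2 CPM in control samples, with overlapping groups and control replicate 3 highest. The difference of −0.92 on the log2 scale (edgeR adjusted p = 0.292) was −0.33 without that library.

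**Figure D4:**
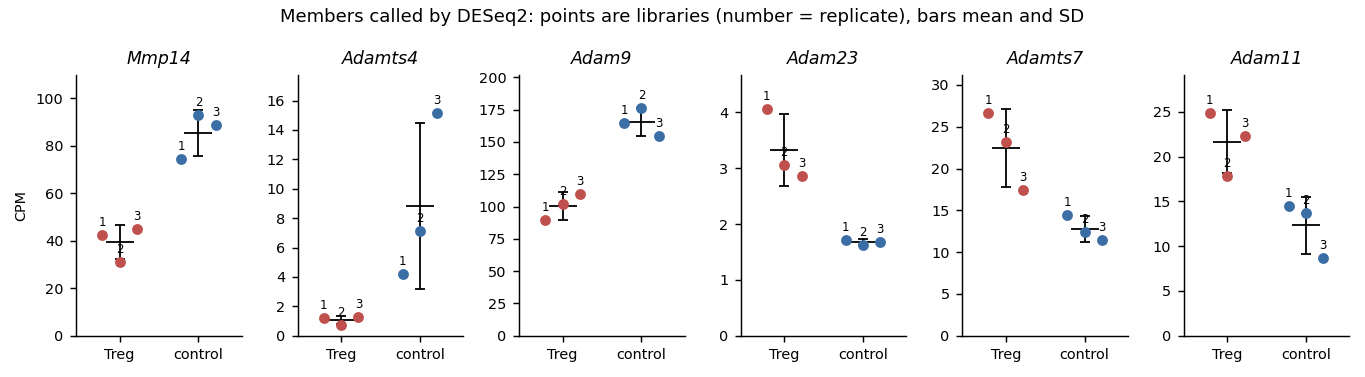
CPM of the 6 members called by DESeq2, with 1 point per library, its replicate number above it, and Treg on the left; bars are the mean and SD of 3 libraries. Mmp14, Adamts4 and Adam9 are lower and Adam23, Adamts7 and Adam11 higher in every Treg library than in any control library.

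Among the ADAMTS genes, 12 of 17 tested members had a fold change below 0, with a median of −0.48. The proteoglycanases, which cut versican and aggrecan, accounted for 6 of these 12. Adamts4, an aggrecanase (chromosome 1, 171250421 to 171260637), had 1.19, 0.757 and 1.29 CPM in Treg samples and 4.18, 7.15 and 15.1 CPM in control samples. All control libraries were above all Treg libraries, although the control values themselves were spread. Adamts4 had a log2 fold change of −3.02 ± 0.50 (edgeR adjusted p = 0.0989, DESeq2 adjusted p = 2.05e-07). Leaving out control replicate 3, the highest, gave −2.38 with edgeR's adjusted p = 0.0237.

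The other proteoglycanases were less separated. Adamts5, the other main aggrecanase (chromosome 16, 85856173 to 85901828), had 32.9, 29.1 and 26.1 CPM in Treg samples and 41.1, 30.9 and 45.1 CPM in control samples, a log2 fold change of −0.41 ± 0.17 (edgeR adjusted p = 0.294). Adamts1, its neighbour on the chromosome and a versican-cutting enzyme (85793827 to 85803113), had 63.9, 55.7 and 74.0 CPM in Treg samples and 58.9, 68.4 and 164 CPM in control samples. The log2 fold change of −0.59 ± 0.37 (edgeR adjusted p = 0.449) rested on control replicate 3 and was 0.020 without it. Adamts15 and Adamts8, which also lie next to each other (chromosome 9, 30899155 to 30922452 and 30942562 to 30963838), differed in which control library was high. Adamts15 had 8.61, 5.73 and 7.07 CPM in Treg samples and 8.95, 10.3 and 23.4 CPM in control samples. Adamts8 had 2.04, 1.37 and 3.89 CPM in Treg samples and 3.93, 6.85 and 3.198 CPM in control samples. Their log2 fold changes were −0.99 ± 0.38 and −0.93 ± 0.44 (edgeR adjusted p = 0.276 and 0.337). Without its highest library, Adamts15 had −0.43 (control replicate 3 omitted) and Adamts8 had −0.55 (control replicate 2 omitted). Adamts9 had −0.27, and −0.013 without control replicate 3. Adamts20 was the 1 proteoglycanase above 0, at 0.63, but it had −0.046 without Treg replicate 3, its highest library.

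The procollagen N-proteinases trim the amino end of fibrillar procollagens. Adamts2, the most abundant of them (chromosome 11, 50602084 to 50807573), had 127, 83.0 and 129 CPM in Treg samples and 168, 172 and 133 CPM in control samples. The groups came close without overlapping, and the log2 fold change was −0.48 ± 0.20 (edgeR adjusted p = 0.302). Adamts14 had −1.09, and −0.42 without control replicate 3, its highest library. Adamts3 had 0.13, and −0.074 without control replicate 2.

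Adamts7 and Adamts12, which cut cartilage oligomeric matrix protein (COMP), had fold changes of opposite sign. Adamts7, an enzyme of vascular smooth muscle (chromosome 9, 90163069 to 90208071), had 26.7, 23.2 and 17.4 CPM in Treg samples and 14.5, 12.4 and 11.4 CPM in control samples. Every Treg library was above every control library, for a log2 fold change of 0.81 ± 0.19 (edgeR adjusted p = 0.159, DESeq2 adjusted p = 0.0153). Adamts12 (chromosome 15, 11064790 to 11349231) had 11.1, 6.06 and 10.7 CPM in Treg samples and 14.6, 19.1 and 10.03 CPM in control samples, a log2 fold change of −0.65 ± 0.31 (edgeR adjusted p = 0.336). The smooth muscle markers Myh11, Acta2 and Cnn1 summed to 144 to 190 CPM in Treg libraries and 154 to 213 CPM in control libraries, but they did not go together. Myh11, the smooth muscle myosin, had 36.0, 34.7 and 31.9 CPM in Treg samples and 25.3, 20.1 and 18.4 CPM in control samples, with the same order of groups as Adamts7. Cnn1, calponin, had 10.7, 17.1 and 20.3 CPM in Treg samples and 67.3, 64.01 and 3.905 CPM in control samples. The part of smooth muscle in the Adamts7 values was not tested.

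Of the ADAMTS members associated with fibrillin microfibrils, Adamts10 and Adamts17 had log2 fold changes of 0.50 and 0.76 and Adamts6 and Adamts19 of −0.24 and −0.50, all with overlapping groups. Adamts19 rested on control replicate 3, with 0.81 without it, and had 0.0085 by limma-voom. Adamts16, linked to blood pressure in rats (chromosome 13, 70727802 to 70841811), had 0.396, 0.0721 and 0.345 CPM in Treg samples and 1.16, 2.61 and 0.101 CPM in control samples. Control replicates 1 and 2 were high and replicate 3 low, with a log2 fold change of −2.22 ± 0.98 (edgeR adjusted p = 0.315), and −1.19 without control replicate 2. Adamts13, the von Willebrand factor protease made mainly in liver (chromosome 2, 26973416 to 27009628), had 0.198, 0.469 and 0.126 CPM in Treg samples and 0.737, 0.199 and 0.269 CPM in control samples. These were 4 to 21 counts, overlapping between the groups, and it was not tested.

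**Figure D5:**
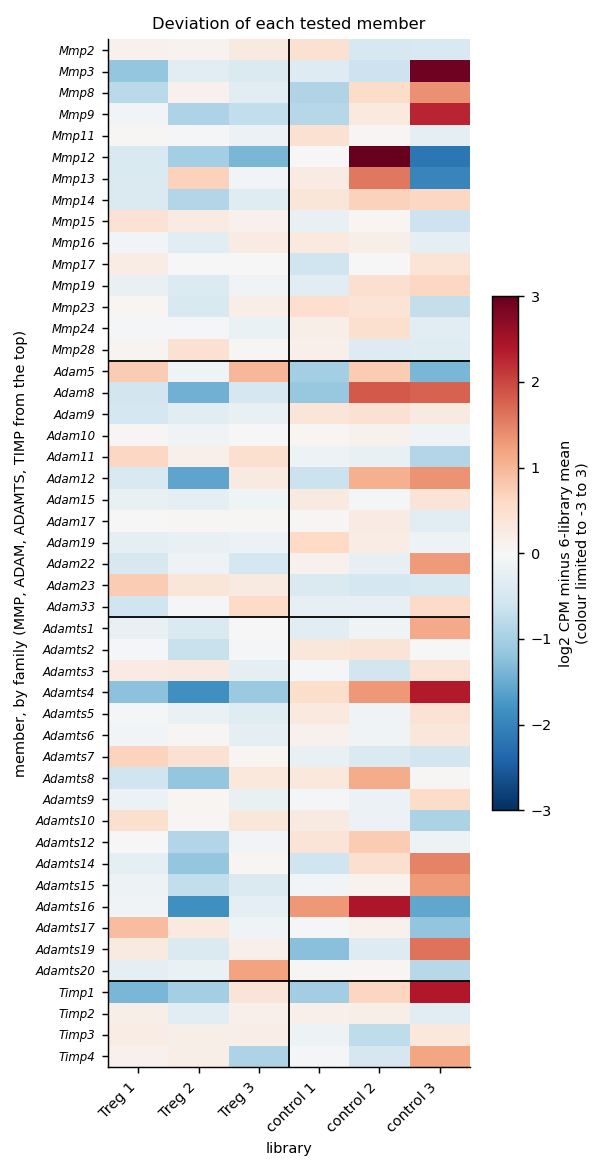
Heat map of the 48 tested members (down the page, by family) in the 6 libraries (columns, Treg on the left); colour is log2 CPM minus the mean of the 6 libraries, limited to the range −3 to 3. Control replicate 3 is dark red for Mmp3, Mmp9, Adamts4 and Timp1 and blue for Mmp12, Mmp13 and Adamts16, while Treg replicate 2 is the bluest Treg column among the ADAMTS genes.

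None of the 4 TIMPs had an unadjusted p under 0.05, and each had overlapping groups. Timp1, the inducible inhibitor (chromosome X, 20870166 to 20874735), had 13.8, 17.5 and 46.5 CPM in Treg samples and 17.2, 55.4 and 187 CPM in control samples. It varied widely within both groups, and control replicate 1 lay with the lower Treg libraries. The log2 fold change of −1.74 ± 0.83 (edgeR adjusted p = 0.342) was −0.49 without control replicate 3 and widened to −2.47 when Treg replicate 3 was omitted. Timp2 (chromosome 11, 118301069 to 118355740), the cofactor of MMP14 in activating MMP2, had 187, 133 and 181 CPM in Treg samples and 182, 184 and 130 CPM in control samples. The ranges were nearly the same, with a log2 fold change of 0.01 ± 0.20 (edgeR adjusted p = 0.977), and −0.13 without control replicate 3.

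Timp3, the matrix-bound inhibitor that also blocks ADAM17 (chromosome 10, 86300372 to 86349506), had 251, 246 and 247 CPM in Treg samples and 195, 127 and 272 CPM in control samples. The SD was 2.66 CPM in Treg samples and 72.4 CPM in control samples (n = 3 each). The log2 fold change was 0.33 ± 0.26 (edgeR adjusted p = 0.532), and 0.62 without control replicate 3. Timp3 shares 21.3% of its exon length with Syn3 on the opposite strand. Timp4, the TIMP known for its expression in heart (chromosome 6, 115241892 to 115252205), had 34.0, 36.1 and 16.5 CPM in Treg samples and 29.9, 22.01 and 71.1 CPM in control samples. Its log2 fold change of −0.51 ± 0.47 (edgeR adjusted p = 0.589) was 0.15 without control replicate 3.

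The libraries differed in which members they carried high. Control replicate 3 was the highest library for 21 of the 48 tested members (43.8%, against 33.3% of all genes), including 9 of 17 ADAMTS and 3 of 4 TIMP genes. It was the lowest for 15 of them (31.2%, against 31.9% of all genes). Control replicate 2 was the highest for 12 (25.0%, against 14.8% of all genes). Treg replicate 2 was the highest for 1 and the lowest for 15 (31.2%, against 17.1% of all genes), 8 of these 15 being ADAMTS genes.

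Genes that regulate these proteases, as a list of 22, had 18 tested, of which 0 passed over all genes by edgeR, 14 had a fold change below 0 (52.0% of all genes) and the median was −0.24. At an unadjusted p under 0.05 there were 3 lower and 3 higher, beside 8.31% and 8.23% of all genes; these shares and the median of −0.02 over all genes also stand beside the 3 lists that follow. Furin, the convertase that activates membrane-anchored MMPs, ADAMs and ADAMTS enzymes, had 75.5, 89.1 and 75.7 CPM in Treg samples and 111, 113 and 118 CPM in control samples, with no overlap (−0.51 ± 0.12 on the log2 scale, edgeR adjusted p = 0.165). Pcsk6, a related convertase, had the opposite direction, at 75.6, 59.2 and 57.2 CPM in Treg samples and 48.4, 31.9 and 24.3 CPM in control samples (0.88 ± 0.26, edgeR adjusted p = 0.212). Plat, tissue plasminogen activator, and Spock2, a matrix proteoglycan of the testican family, had log2 fold changes of −1.14 and −1.60 (edgeR adjusted p = 0.132 and 0.257). The groups did not overlap for Plat, whereas Spock2 overlapped and had −0.79 without control replicate 3. Of the 6 ADAMTS-like genes, which lack the protease domain, all were tested, 0 passed by edgeR or at an unadjusted p under 0.05, and the median was 0.16. Adamtsl5 and Papln had the smallest p-values, with log2 fold changes of −0.27 and 1.00, and Papln had 1.75 without control replicate 1.

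Membrane proteins shed by ADAMs, a list of 18 genes with 17 tested, had 0 members past edgeR's adjusted threshold, 4 lower (8.31% of all genes) and 0 higher (8.23%) at an unadjusted p under 0.05, and a median of −0.19. Hbegf, the heparin-binding EGF-like growth factor cut by ADAM12 and ADAM17, had 27.1, 30.6 and 32.4 CPM in Treg samples and 54.0, 54.7 and 91.2 CPM in control samples. These groups were well apart, with a log2 fold change of −1.15 ± 0.22 (edgeR adjusted p = 0.124). Tnfrsf1a, a TNF receptor, and Ereg, the growth factor epiregulin, had −0.58 and −1.53. Tnfrsf1a did not overlap between the groups, while Ereg did and had −0.63 without control replicate 3, its highest library. Matrix substrates of ADAMTS enzymes, a list of 10 genes with 8 tested, had 0 past edgeR's adjusted threshold, 3 lower (8.31% of all genes) and 1 higher (8.23%) at an unadjusted p under 0.05, and a median of −0.25. Fbn2, the fibrillin of developing tissue, had 2.67, 2.67 and 3.99 CPM in Treg samples and 15.97, 16.8 and 9.06 CPM in control samples, a log2 fold change of −2.16 ± 0.29 (edgeR adjusted p = 0.0871). Fbn1, the main adult fibrillin, and Vcan, versican, had −0.87 and −0.97 (edgeR adjusted p = 0.241 and 0.262), while Acan, aggrecan, stood below 1 CPM in every library and had 0.96.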

How the data were processed

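Per the labels' protocols, RNA from frozen left ventricle was made into stranded mRNA libraries and sequenced as paired 101 bp reads. The deposited values are estimated counts per gene, not normalized. GRCm38, featureCounts 2.0.6, HISAT2 2.1.0, Cuffdiff 2.2.1 and Trimmomatic 0.39 are listed in the submitters' processing notes; the sources used here do not give counting options, so for the 17 members that share exonic bases with a gene on the opposite strand, reads of the pair may not be separated. The table's 6 further columns match no listed sample and were not used. Symbols, coordinates and exon lengths are from GENCODE M21 (47310 of 47729 IDs matched).

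Counts were rounded, filtered with filterByExpr (17365 genes), TMM-scaled and tested in edgeR 4.0.16 (R 4.3.3) by two-sided robust quasi-likelihood F tests, 3 Treg against 3 control libraries, with Benjamini-Hochberg adjustment over all tested genes. Standard errors were taken as |log2 fold change|/√F. Signs and median sizes of fold changes were checked on counts simulated with the spread that edgeR fitted. Because it takes that spread as given, this check cannot decide between the numbers of genes called by edgeR and DESeq2. DESeq2 1.42.0, limma-voom (limma 3.58.1), other scaling and filters, a replicate block and omissions were alternatives. Whether every library is a separate animal is not stated in the labels, so p-values reflect only the spread among libraries, which may be technical. The members and gene lists were chosen with earlier results of these data known. Values per library are given for all TIMP genes, the 10 MMP, 5 ADAM and 8 ADAMTS genes with the smallest p, the most abundant of each family and 12 chosen by name; Mmp10, Mmp13, Adam19 and Adam22 were added after their values were seen.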

Additional observations from a re-analysis of the deposited data

How the results depend on the processing

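With edgeR's 6-library fit at 0 genes and 0 members past an adjusted p of 0.05, the counts moved under some settings. DESeq2 called 650 genes and 6 members (Mmp14, Adamts4, Adam9, Adam23, Adamts7 and Adam11). Testing without a filter called 38 genes and 1 member (Mmp14), and a threshold of 0.1 gave 82 genes and 2 members. Leaving out 1 library gave 0 to 230 genes and 0 to 3 members, the nonzero ones all from the omission of control replicate 3, and leaving out control replicate 3 and Treg replicate 3 together gave 119 genes and 2 members (Mmp14 and Adamts4). No gene was called with RLE scaling, by limma-voom or among genes averaging 1 CPM or more. With the replicate number as a block, 0 genes and 0 members were called and 10 members had an unadjusted p under 0.05; same-numbered libraries correlated in their deviations at −0.142, −0.236 and 0.0424, so the numbers were not taken as pairs. Among 401 fold changes of 31 named members under all settings, 11 changed sign. Over the omissions, Adam10 ranged from −0.11 to 0.0050, Adam17 from −0.13 to 0.14, Adamts1 from −0.83 to 0.020, Timp2 from −0.13 to 0.15 and Timp4 from −0.80 to 0.15. With replicate 3 of both groups out, Adam17, Timp2 and Timp4 had −0.14, −0.21 and 0.42. The cause was not tested. Members not overlapping numbered 11 to 21 with up to 1 library left out and 24 with replicate 3 of both groups out, where fewer libraries have to separate. Chosen after seeing the data were the counts at an unadjusted p and of fold changes below 0 under other settings, and the count without overlap under the joint omission. At 21 counts or fewer, 23 members were too scarce to compare.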
